A study of Mus musculus with 3 samples.

Results

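Notch1 and Notch2, the receptors of the Notch pathway, were followed beside Rbpj, the DNA-binding factor through which they act, the target genes Hes1, Dtx1 and Nrarp, and Hes6, a relative of Hes1. These 7 genes were chosen by symbol from the 27998 genes in the tables, and each was found. Single-cell RNA was counted in 3 populations sorted from C57BL/6 mouse bone marrow, with 1 library each made by droplet chemistry that counts tags at the 3' end of each RNA. The ALP library holds common lymphoid progenitors from Tcf7EGFP/+ mice, negative for lineage markers and a4b7 and positive for Kit, 2B4 and IL-7Ra, with Flt3 at a high level. ILCpro_WT is made of progenitors on the way to innate lymphoid cells (ILCs), also from Tcf7EGFP/+ mice, negative for lineage markers and positive for Kit, 2B4, a4b7 and the Tcf7 reporter. ILCpro_KO passed the same gate and came from Tcf7EGFPnull/- mice. No group is free of the EGFP allele, so "WT" means heterozygous for it. The labels give neither the age of the mice nor whether animals were pooled. Tcf7 encodes TCF-1, a factor that drives the first steps toward T cells and ILCs.

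The filter kept 810 ALP, 1829 ILCpro_WT and 716 ILCpro_KO cells, with 4115605, 6094683 and 4384061 UMIs (unique transcript counts) and medians of 4544.5, 2897 and 5309 UMIs a cell. ALP and ILCpro_WT shared 4 cell barcodes, ILCpro_WT and ILCpro_KO shared 1, and ALP and ILCpro_KO shared 0. The summed markers of early lymphoid progenitors stood at 3260 CPM (UMIs per 1000000 UMIs of the library) in ALP, 519 in ILCpro_WT and 857 in ILCpro_KO, and those of ILC precursors at 222, 2607 and 1051 CPM. Tcf7 stood at 1.46, 362 and 57.3 CPM in the same order. The labels do not name the part of the gene that the null allele lacks, so tags at the 3' end do not check the genotype. Clusters named for other lineages held 2.59% of ALP, 5.52% of ILCpro_WT and 29.7% of ILCpro_KO cells, and results are also given with these cells left out of both ILC progenitor libraries (called below without other lineages) where that moves them. Intervals in parentheses are exact at 95% and cover counting error only, because 1 library per group leaves no spread between replicates and allows no test.

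Notch receptors are cut when they bind a ligand on a neighbouring cell, and the freed intracellular part enters the nucleus and joins RBPJ on DNA. RBPJ without that partner recruits corepressors, and with it turns on genes such as Hes1, a transcriptional repressor, Dtx1, a ubiquitin ligase that acts on the pathway, and Nrarp, which feeds back on it. In lymphoid development Notch1 signalling directs progenitors to the T cell fate in the thymus, and Tcf7 and Gata3 are among the genes it induces there.

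RefSeq promoter windows of 300 bases (GRCm38.p6) were at hand for all of the 7 genes but Hes1, 8 windows for 6 genes, and 3 are shown. Notch1 is printed as the receptor that set ALP apart from both ILC progenitor libraries. Dtx1 is printed as a target counted mostly in the T cell-like cells of ILCpro_KO. Rbpj is the gene whose windows matched the core motif that RBPJ binds. The letters run 5' to 3' on the strand of the gene, from 250 bases before the start to 50 after it, at chr2:26503773-26504072 (minus strand), chr5:120711620-120711919 (minus strand) and chr5:53590096-53590395 (plus strand). Capitals mark the core motif TGGGAA or its reverse complement TTCCCA.

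Notch1: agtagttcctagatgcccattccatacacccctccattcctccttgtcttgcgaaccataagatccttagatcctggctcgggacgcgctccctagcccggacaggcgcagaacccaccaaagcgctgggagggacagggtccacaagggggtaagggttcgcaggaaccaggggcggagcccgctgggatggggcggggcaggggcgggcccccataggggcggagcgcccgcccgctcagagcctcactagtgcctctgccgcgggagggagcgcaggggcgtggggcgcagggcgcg

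Dtx1: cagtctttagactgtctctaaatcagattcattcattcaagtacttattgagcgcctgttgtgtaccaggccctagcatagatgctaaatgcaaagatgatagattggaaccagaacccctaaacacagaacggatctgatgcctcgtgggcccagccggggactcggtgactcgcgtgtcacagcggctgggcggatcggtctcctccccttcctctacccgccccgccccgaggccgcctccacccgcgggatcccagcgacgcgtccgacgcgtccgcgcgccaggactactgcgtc

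Rbpj: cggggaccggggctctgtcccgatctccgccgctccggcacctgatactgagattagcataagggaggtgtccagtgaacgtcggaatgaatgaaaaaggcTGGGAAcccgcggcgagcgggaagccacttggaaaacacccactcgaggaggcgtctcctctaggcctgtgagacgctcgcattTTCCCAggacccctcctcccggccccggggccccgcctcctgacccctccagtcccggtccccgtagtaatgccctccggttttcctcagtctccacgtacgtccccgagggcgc

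TGGGAA or TTCCCA was found in 2 of the 8 windows, both of Rbpj. The window printed holds it at -149 and -65 from the start, and the other, which overlaps it, holds the second of these. Among all 32851 RefSeq windows of this length 25.6% hold the motif and 3.79% hold it 2 or more times. The TCF core TCAAAG or CTTTGA was in 0 of the 8 windows and in 16% of all windows. The E protein motif CAGGTG or CACCTG, at 20.2% of all windows, was in the printed Rbpj window and in 1 window of Hes6. No match overlapped another, and a match describes letters in these windows and nothing more. The Notch1 and Rbpj windows lie inside the gene locations given below, away from their ends. The tags do not show which start the cells used.

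The receptors went separate ways between the libraries. Notch1 (ENSMUSG00000026923, GRCm38 chromosome 2, 26457903 to 26516663, minus strand) was read at 111 CPM (101–122) in ALP from 458 UMIs, 24.3 CPM (20.5–28.5) in ILCpro_WT from 148 UMIs and 33.8 CPM (28.5–39.7) in ILCpro_KO from 148 UMIs. ALP was the high library, with an interval far above both others, whose intervals lie end to end. Notch1 was thus 4.58-fold lower (3.8–5.55) in ILCpro_WT than in ALP and 3.30-fold lower (2.73–3.995) in ILCpro_KO than in ALP, comparisons that share the ALP library. Without other lineages the second was 4.64-fold lower (3.61–6.03). Between the ILC progenitor libraries it was 1.39-fold higher (1.10–1.76) in ILCpro_KO. That last difference was 1.01-fold (0.750–1.36) without other lineages, where Notch1 stood at 24 CPM in ILCpro_KO and 23.7 CPM in ILCpro_WT. Of the markers of those lineages, the neutrophil and monocyte list, all 11 found in ILCpro_KO, summed to 979 CPM in ALP, 494 CPM in ILCpro_WT and 4745 CPM in ILCpro_KO. The neutrophil-monocyte-like cells of ILCpro_KO held 20 of its 148 Notch1 UMIs, at 37.4 CPM. Its conventional DC-like cells held 15, at 20.6 CPM, its B cell-like cells 1, and its 22 T cell-like cells 40, at 403 CPM.

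Notch2 (ENSMUSG00000027878, chromosome 3, 98013527 to 98150361, plus strand) stood at 79.2 CPM (70.8–88.3) in ALP, 84.0 CPM (76.9–91.6) in ILCpro_WT and 106 CPM (96.9–116) in ILCpro_KO. ALP and ILCpro_WT overlapped, and ILCpro_KO lay above both. The difference between ILCpro_WT and ALP was 1.06-fold (0.921–1.22), and ILCpro_KO was 1.27-fold higher (1.11–1.44) than ILCpro_WT. Without other lineages the levels were 81.0 CPM in ILCpro_WT and 107.6 CPM in ILCpro_KO. The other receptors were near the limit of counting, with Notch3 at 0.684 CPM or less and Notch4 at 1.48 CPM or less in each library.

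Rbpj (ENSMUSG00000039191, chromosome 5, 53466152 to 53657362, plus strand) was lowest where Notch1 was highest. It stood at 38.9 CPM (33.1–45.4) in ALP, 66.8 CPM (60.4–73.6) in ILCpro_WT and 56.1 CPM (49.3–63.6) in ILCpro_KO. ALP lay below both other libraries, whose intervals overlap. Rbpj was 1.72-fold higher (1.43–2.08) in ILCpro_WT and 1.44-fold higher (1.18–1.77) in ILCpro_KO than in ALP, and 1.19-fold lower (1.01–1.40) in ILCpro_KO than in ILCpro_WT. Without other lineages that last ratio was 1.28-fold lower (1.07–1.56), from 52.6 and 67.6 CPM.

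Among the targets, Hes1 set the libraries apart. Hes1 (ENSMUSG00000022528, chromosome 16, 30064384 to 30067796, plus strand) stood at 1.21 CPM (0.394–2.84) in ALP from 5 UMIs, 46.9 CPM (41.6–52.7) in ILCpro_WT from 286 UMIs and 7.76 CPM (5.37–10.8) in ILCpro_KO from 34 UMIs. The 3 intervals do not overlap, with ILCpro_WT high, ILCpro_KO low and ALP lowest. Hes1 was 38.6-fold higher (16.4–119.9) in ILCpro_WT than in ALP and 6.38-fold higher (2.48–20.9) in ILCpro_KO than in ALP. It was 6.05-fold lower (4.23–8.91) in ILCpro_KO than in ILCpro_WT. Without other lineages the ILC progenitor levels were 10.3 and 49.5 CPM, 4.79-fold lower (3.30–7.19) in ILCpro_KO.

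The share of cells with a Hes1 UMI had the same order at an equal depth. After each cell was thinned to 1000 UMIs, which left out 4 ILCpro_WT cells, Hes1 was found in 0.247% (0.0299–0.889) of ALP, 4.44% (3.54–5.49) of ILCpro_WT and 1.12% (0.484–2.19) of ILCpro_KO. Unthinned, the shares were 0.494%, 12.7% and 3.77%. Hes1 was found in 0 of the 62 neutrophil-monocyte-like cells of ILCpro_KO (median 8515 UMIs), where the limit set by 3 cells is a share with a UMI of 4.84%. In the conventional dendritic cell (DC)-like cluster it was found after thinning in 0 of 87 ILCpro_WT cells (median 3141 UMIs) and 0 of 123 ILCpro_KO cells (median 5312 UMIs), with limits set the same way of 3.45% and 2.44%. Unthinned, the shares with a Hes1 UMI in these 3 sets were 0%, 1.15% and 0%. The thinned share of Notch1 was 12.3% in ALP, 1.75% in ILCpro_WT and 3.63% in ILCpro_KO, against 40.9%, 7.0% and 14.7% unthinned and 1.63% of the conventional DC-like cells of ILCpro_KO.

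Dtx1 and Nrarp were near the limit of counting. Dtx1 (ENSMUSG00000029603, chromosome 5, 120680202 to 120711927, minus strand) had 2 UMIs in ALP, 0 in ILCpro_WT and 22 in ILCpro_KO, or 0.486, 0 and 5.02 CPM (3.14–7.60 in ILCpro_KO). ILCpro_KO was at least 10.2-fold higher than ILCpro_WT with 3 UMIs in ILCpro_WT taken as the floor, and the exact interval of the ratio starts at 7.62. Of the 22 UMIs, 20 lay in 22 T cell-like cells, and without other lineages Dtx1 had 0 UMIs in both libraries. Nrarp (ENSMUSG00000078202, chromosome 2, 25180758 to 25183339, plus strand) had 7 UMIs in ALP, 1 in ILCpro_WT and 2 in ILCpro_KO. Its level of 1.70 CPM (0.684–3.50) in ALP was the highest of the 3, and the ratio of ILCpro_WT to ALP was 0.0965 (0.00214–0.751).

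Hes6 (ENSMUSG00000067071, chromosome 1, 91411483 to 91414038, minus strand), a HES family member that can oppose HES1, stood at 261 CPM (245–277) in ALP, 143 CPM (134–153) in ILCpro_WT and 162 CPM (150.3–174) in ILCpro_KO. ALP was again the high library and overlapped neither of the others. Hes6 was 1.82-fold lower (1.67–1.997) in ILCpro_WT and 1.61-fold lower (1.46–1.77) in ILCpro_KO than in ALP. ILCpro_KO was 1.13-fold higher (1.02–1.25) than ILCpro_WT, but 1.08-fold (0.962–1.22) without other lineages, an interval that includes no difference. With the stage ranges described below weighted as in ILCpro_WT, it was the lower, at 134 against 143 CPM.

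**Figure D1:**
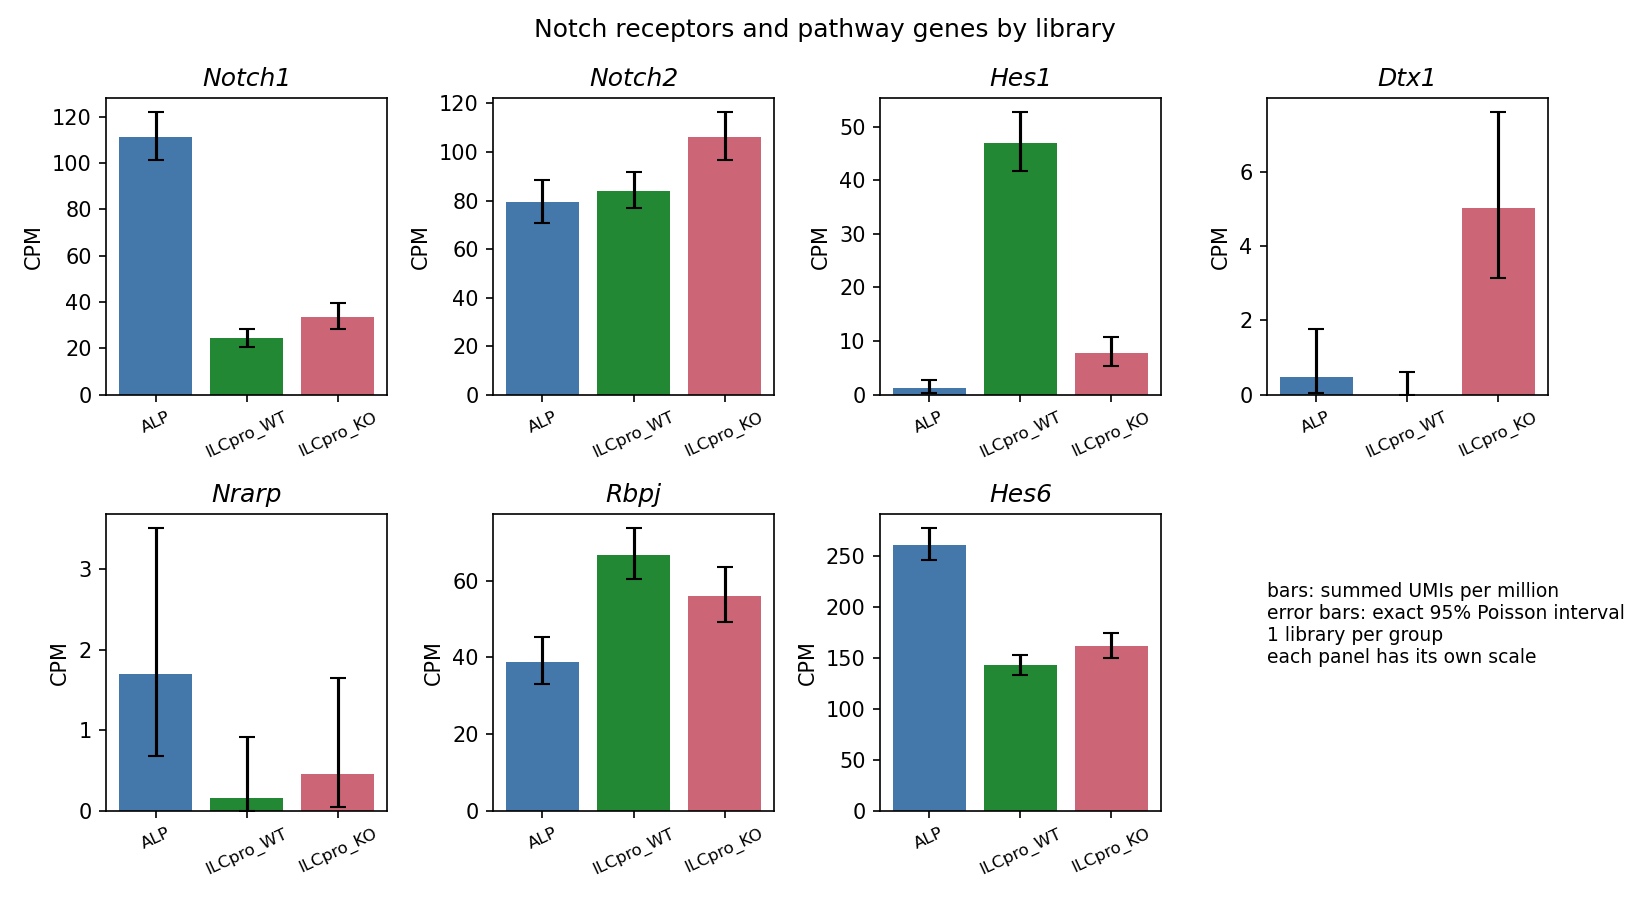
Level of each of the 7 genes in ALP, ILCpro_WT and ILCpro_KO, in CPM on a scale of its own per panel. Bars are the summed UMIs of 1 library each in CPM and error bars the exact 95% Poisson interval. Notch1 and Hes6 are highest in ALP, Hes1 and Rbpj in ILCpro_WT, and Notch2 and Dtx1 in ILCpro_KO.

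Read as a set, few of the 7 genes passed a 2-fold difference, counted on the scale log2((CPM + 10)/(CPM + 10)), which pulls low genes toward 0. For ILCpro_WT against ALP 1 was at least 2-fold lower (Notch1, log2 ratio -1.82) and 1 at least 2-fold higher (Hes1, 2.34), where 3.06% of the 9616 genes with at least 5 CPM in either library were lower by that much and 2.11% higher. For ILCpro_KO against ALP 1 was lower (Notch1, -1.47) and 0 higher, against 1.43% and 2.01% of 9644 genes. For ILCpro_KO against ILCpro_WT 1 was lower (Hes1, -1.68) and 0 higher, against 0.869% and 1.48% of 9551 genes. The minimum of 5 CPM was met by 5, 6 and 6 of the 7 genes in these comparisons. Median log2 ratios of the 7 genes were -0.07, 0.38 and 0.17, beside -0.07, 0.01 and 0.09 for all genes that met the minimum. The numbers are too small for a share of the 7 to be read against the background.

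Receptors and targets did not order the libraries alike. Notch1 and Notch2 together gave 190.5 CPM (177–204) in ALP, 108 CPM (100.2–117) in ILCpro_WT and 140.1 CPM (129–152) in ILCpro_KO. Hes1, Dtx1 and Nrarp together gave 3.40 CPM (1.86–5.71), 47.1 CPM (41.8–52.9) and 13.2 CPM (10.05–17.1). ALP was high in the receptor sum and low in the target sum, and ILCpro_WT the reverse. Without other lineages ILCpro_KO had 132 CPM (119–145) of receptors and 10.7 CPM (7.29–15.05) of targets, and ILCpro_WT 105 CPM (96.5–113) and 49.7 CPM (44.1–55.8), in the same order. These orders are those of Notch1 and Hes1 and not of each gene. Hes1 gave 286 of the 287 target UMIs in ILCpro_WT, whereas Dtx1 and Nrarp were lowest there, and Notch2 was lowest in ALP.

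The same question was put to single cells of 1 library. In ILCpro_WT the 433 cells with a Notch1 or Notch2 UMI had 30.4 CPM of Hes1 (22.6–40.1), and the 1396 cells with neither had 53.0 CPM (46.5–60.2). Hes1 was 1.74-fold lower (1.28–2.41) in the cells with a receptor UMI, which were the deeper, with medians of 3331 and 2753 UMIs. Among ILCpro_WT cells of 2000 to 6000 UMIs it was 1.55-fold lower (1.07–2.29). Without other lineages it was 1.78-fold lower (1.30–2.48). In ILCpro_KO the Hes1 levels were 6.46 CPM (3.44–11.04) with a receptor UMI and 8.86 CPM (5.48–13.5) without, which overlap. Dtx1 ran the other way there, at 9.43 CPM (5.68–14.7) with a receptor UMI and 1.27 CPM (0.261–3.70) without, 7.45-fold higher (2.19–39.3), and had 0 UMIs in either kind of cell without other lineages. Rbpj and Hes6 were alike in both kinds of cells, with ratios from 0.894 to 1.08 over the 3 libraries and intervals that include 1. Stage was not held equal between the cells compared. Cells with both a receptor and a Hes1 UMI numbered 42 in ILCpro_WT, 11 in ILCpro_KO and 2 in ALP.

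Stage within the libraries was read from 10 early genes, such as Flt3 and Dntt, and 10 late genes, such as Zbtb16, Gata3 and Tox2, which hold none of the 7 genes. Each cell fell in a range by the late share of its UMIs from these lists: early under 1/3, middle up to 2/3, late from 2/3. Of ILCpro_WT cells 483 were early, 290 middle and 1039 late, and of ILCpro_KO cells 494, 127 and 93. ALP had 802 early cells and 4 in each other range, which were left out. These are ranges of a score and not cell types, and 187 ILCpro_WT, 80 ILCpro_KO and 5 ALP cells lay near a limit.

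Hes1 was higher in each later range of both ILC progenitor libraries. In ILCpro_WT it stood at 3.33 CPM (1.22–7.24) early, 27.4 CPM (18.6–38.8) in the middle and 79.9 CPM (70.3–90.4) late. In ILCpro_KO it stood at 1.24 CPM (0.339–3.18), 10.7 CPM (4.61–21.05) and 53.7 CPM (33.6–81.2), the last from 22 UMIs in 93 cells. The late range exceeded the early by 24-fold (10.9–66.0) in ILCpro_WT and 43.2-fold (14.7–172) in ILCpro_KO. Early cells of the 3 libraries all lay low and overlapped, with ALP at 1.22 CPM (0.397–2.86).

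By value, ILCpro_KO and ILCpro_WT were closer for Hes1 within each range than as whole libraries. In the early range Hes1 was 2.68-fold lower (0.635–12.9) in ILCpro_KO, from 4 UMIs against 6 in ILCpro_WT. Hes1 was 2.56-fold lower (1.15–6.45) in ILCpro_KO in the middle range and 1.49-fold lower (0.962–2.42) in the late range, an interval that includes no difference. Without the clusters of other lineages the middle and late ratios were 2.92-fold lower (1.20–8.56) and 1.35-fold lower (0.874–2.20). Over all cells the early and middle intervals include the 6.05-fold of the whole libraries. With the ILCpro_KO ranges weighted by the share of UMIs that each has in ILCpro_WT, Hes1 stood at 30.003 against 47.2 CPM, 1.57-fold lower in place of 6.05-fold. On the log2 scale with 10 CPM added that is -0.52 in place of -1.68, so Hes1 was no longer at least 2-fold lower. The weighted ratio has no interval and leans on the 22 UMIs of the late ILCpro_KO range. Gata3 of the late list was itself lower in ILCpro_KO, at 75.3 against 339 CPM, so the ranges are not independent of genotype. Whether stage accounts for the Hes1 difference was not tested.

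Notch1 went the other way along the ranges in ILCpro_WT. It stood at 44.4 CPM (35.2–55.2) early, 18.5 CPM (11.5–28.3) in the middle and 13.2 CPM (9.44–17.8) late, 3.37-fold lower (2.29–5.04) late than early. In ILCpro_KO it stood at 34.8 CPM (28.7–41.9), 40.1 CPM (27.03–57.2) and 14.6 CPM (5.37–31.9), so the middle range was not below the early one. Early cells differed between libraries at the same range, since ALP had 112 CPM (102–123), 2.53-fold more (1.99–3.25) than early ILCpro_WT cells. The middle range of ILCpro_KO held 2.16-fold more Notch1 (1.20–3.97) than that of ILCpro_WT. Without the clusters of other lineages it held less by value, at 14.4 CPM (6.60–27.4) against 18.1 CPM (11.1–28.0), which overlap, and the middle range of ILCpro_KO was then below its early range (29.0 CPM) by value. Early ILCpro_KO cells were in that case 1.60-fold lower (1.11–2.31) in Notch1 than early ILCpro_WT cells, where the ratio over all cells, 1.28-fold lower (0.945–1.71), includes no difference.

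Notch2 was the higher in ILCpro_KO in each range. It stood at 77.1, 72.4 and 92.7 CPM from early to late in ILCpro_WT and at 108, 94.8 and 119.5 CPM in ILCpro_KO, with late over early at 1.20-fold (0.979–1.48) and 1.11-fold (0.807–1.503). Without other lineages these were 1.42-fold (1.13–1.81) and 1.06-fold (0.743–1.48), so that late then exceeded early in ILCpro_WT. ILCpro_KO exceeded ILCpro_WT by 1.39-fold (1.14–1.71) in the early range, and by 1.63-fold (1.28–2.09) there without other lineages. The middle and late ratios were 1.31-fold (0.939–1.82) and 1.29-fold (0.932–1.75), and without other lineages 1.54-fold (1.10–2.16) and 1.22-fold (0.858–1.68).

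Rbpj followed Hes1 in ILCpro_WT, from 51.6 CPM (41.6–63.2) early to 75.4 CPM (66.0–85.7) late, 1.46-fold higher (1.14–1.88). In ILCpro_KO it stood at 56.5 CPM early and 48.8 CPM late, which overlap. Without other lineages late over early was 1.48-fold (1.13–1.94) in ILCpro_WT and 1.04-fold (0.602–1.72) in ILCpro_KO. Hes6 was lower late than early in both, at 119 against 179 CPM in ILCpro_WT (1.501-fold, 1.29–1.75) and 117 against 182 CPM in ILCpro_KO (1.55-fold, 1.16–2.13). Without other lineages it was 1.32-fold lower (1.12–1.56) in ILCpro_WT and 1.36-fold lower (0.996–1.905) in ILCpro_KO, an interval that includes no difference.

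**Figure D2:**
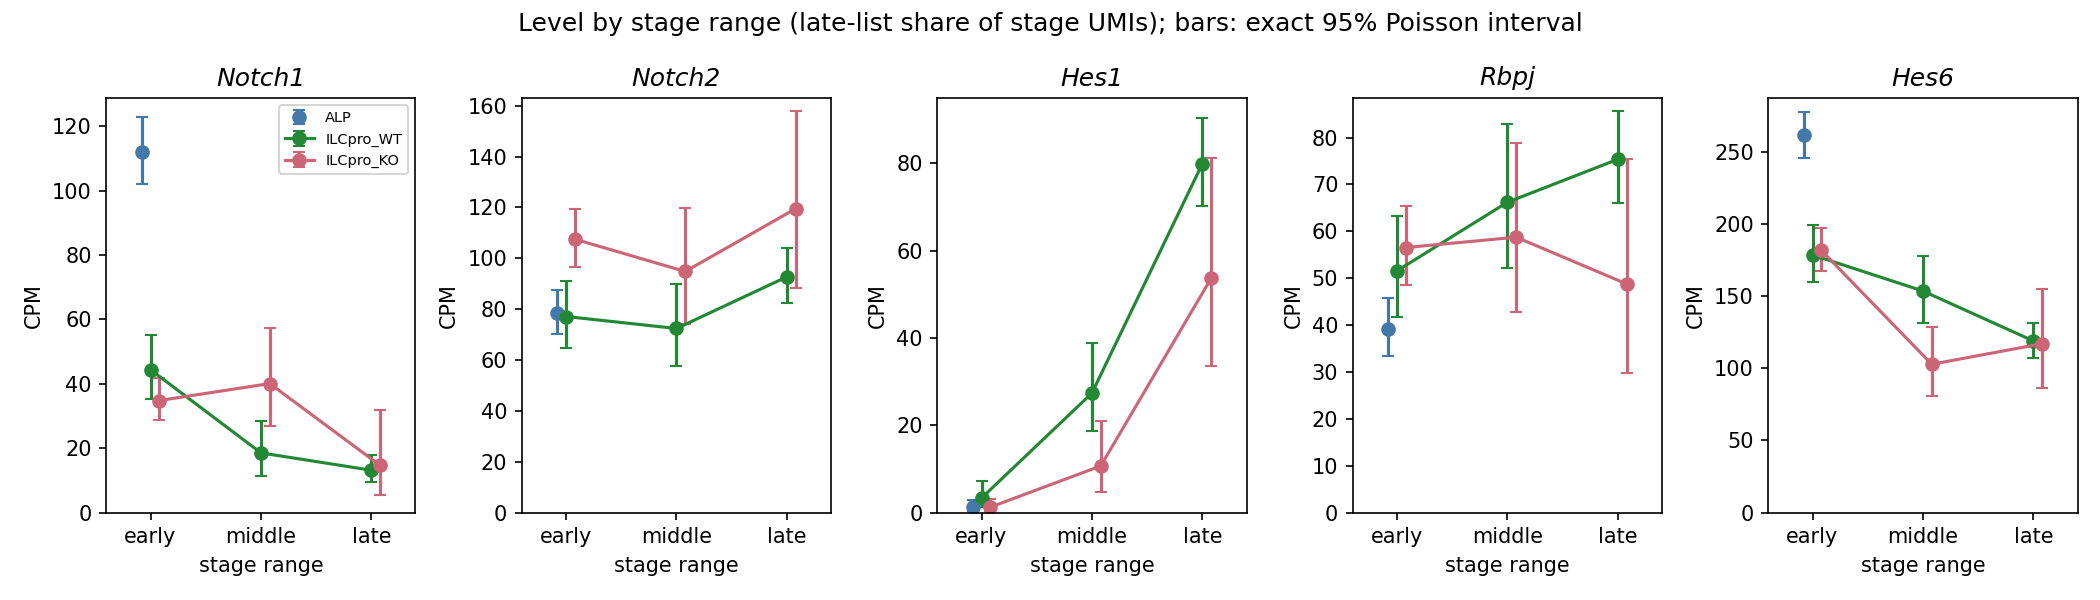
Level in CPM (each panel on its own scale) of 5 genes in the early, middle and late stage ranges of ALP (early only), ILCpro_WT and ILCpro_KO. Points are the summed UMIs of a range in CPM and bars the exact 95% Poisson interval. Hes1 climbs from 3.33 to 79.9 CPM in ILCpro_WT and from 1.24 to 53.7 CPM in ILCpro_KO, while Notch1 is highest in ALP and lowest in the late ranges.

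**Figure D3:**
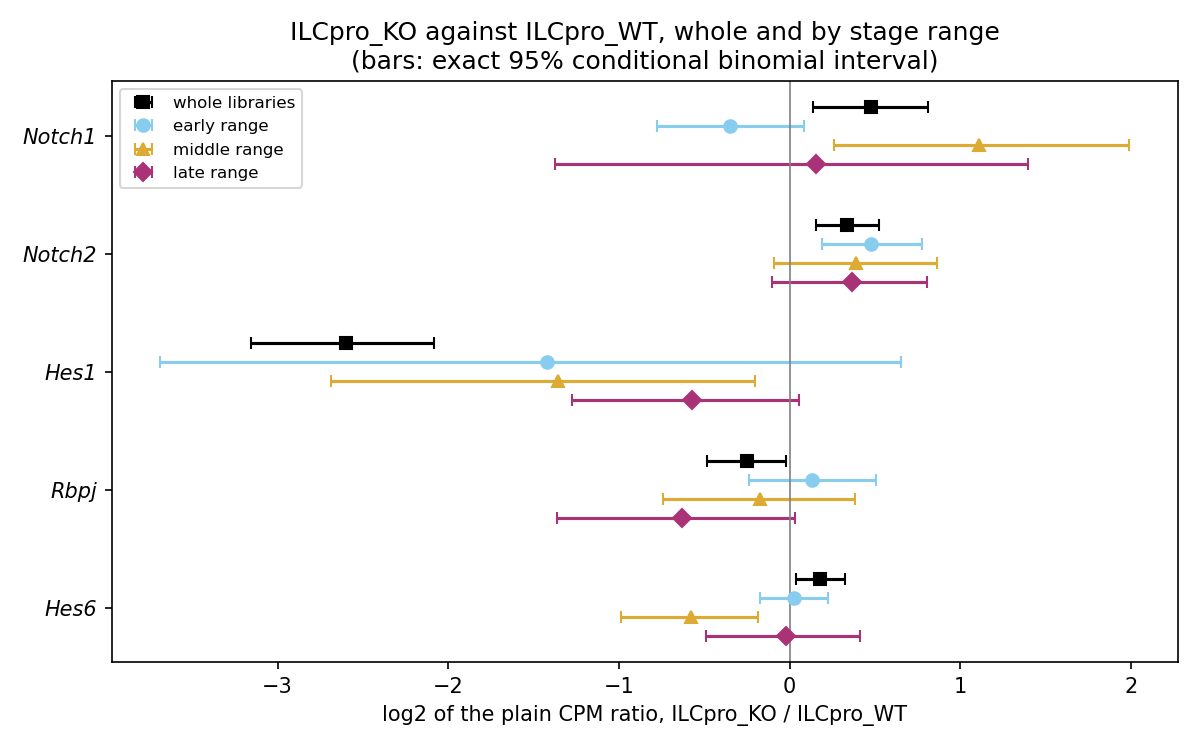
Log2 of the plain CPM ratio of ILCpro_KO to ILCpro_WT for 5 genes, for the whole libraries and for each stage range, with exact 95% conditional binomial intervals. The Hes1 ratio of the whole libraries lies further below 0 than that of any range, and the Notch2 ratios all lie above 0.

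Joint clustering, made without the 7 genes, their pathway or the markers, gave 15 clusters, and those with at least 50 cells of a library are compared. Hes1 in ILCpro_WT was concentrated in ILC precursor-like cells, at 94.0 CPM (78.4–112) in cluster 1 and 70.3 CPM (55.5–87.7) in cluster 3. It was also high in unnamed cluster 8, at 74.3 CPM (51.7–103). Klrd1, Eomes, Tnfrsf9, Mdk and Lef1 led cluster 8, where markers of natural killer (NK) cells and of early ILC progenitors were raised. At resolution 1.5 an NK-like cluster led by Klrd1 and Eomes held 30 ILCpro_WT and 2 ILCpro_KO cells. Another, led by Tnfrsf9, Mdk and Lef1, held 126 and 25, with Hes1 among its leading 10 genes. Cluster 11, led by Stab2 and Icos and also named ILC precursor-like by the marker rule, had 14.2 CPM (2.94–41.6). Of the precursor markers, Il7r, Gata3, Rora, Il18r1, Cxcr6 and Icos were at least 2-fold higher in it than in other cells. Zbtb16, Tcf7, Pdcd1 and Id2 were not. The other ILCpro_WT clusters ranged from 6.75 to 20.7 CPM. Clusters 1, 3 and 8 together held most Hes1 UMIs of the library, 127, 78 and 35 of 286.

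Cells of those 3 clusters were few in ILCpro_KO. Cluster 1 held 518 ILCpro_WT and 8 ILCpro_KO cells, cluster 3 held 322 and 7, and cluster 8 held 154 and 27. The 27 ILCpro_KO cells of cluster 8 had 15 of the 34 Hes1 UMIs of their library, or 95.5 CPM (53.5–158), beside 74.3 CPM in the ILCpro_WT cells of that cluster. In the 6 clusters with at least 50 ILCpro_KO cells Hes1 reached 9.84 CPM at most and had 0 UMIs in clusters 5, 7 and 10. In cluster 5, led by genes of dividing cells, the 84 ILCpro_KO cells had 0 UMIs and the 174 ILCpro_WT cells 21 UMIs, or 20.7 CPM (12.8–31.7). Clusters 2 and 4 overlapped between the libraries, at 9.84 and 9.44 CPM and at 7.84 and 16.8 CPM in ILCpro_KO and ILCpro_WT.

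Notch1 was highest in the ALP clusters, at 131 CPM (116–147) in early lymphoid progenitor-like cluster 0 and 94.0 CPM (80.4–109) in cluster 6, led by genes of dividing cells. In ILCpro_WT it ranged from 10.6 CPM (3.45–24.8) in cluster 8 to 50.4 CPM (37.1–66.8) in unnamed cluster 2, which Nfil3 and Cpa3 are among the genes to lead. Across the 16 combinations of cluster and library the log2 levels of Hes1 and Notch1 had a Pearson r of -0.595, and those of Hes1 and Rbpj of 0.618, given as a description, since the points share libraries.

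**Figure D4:**
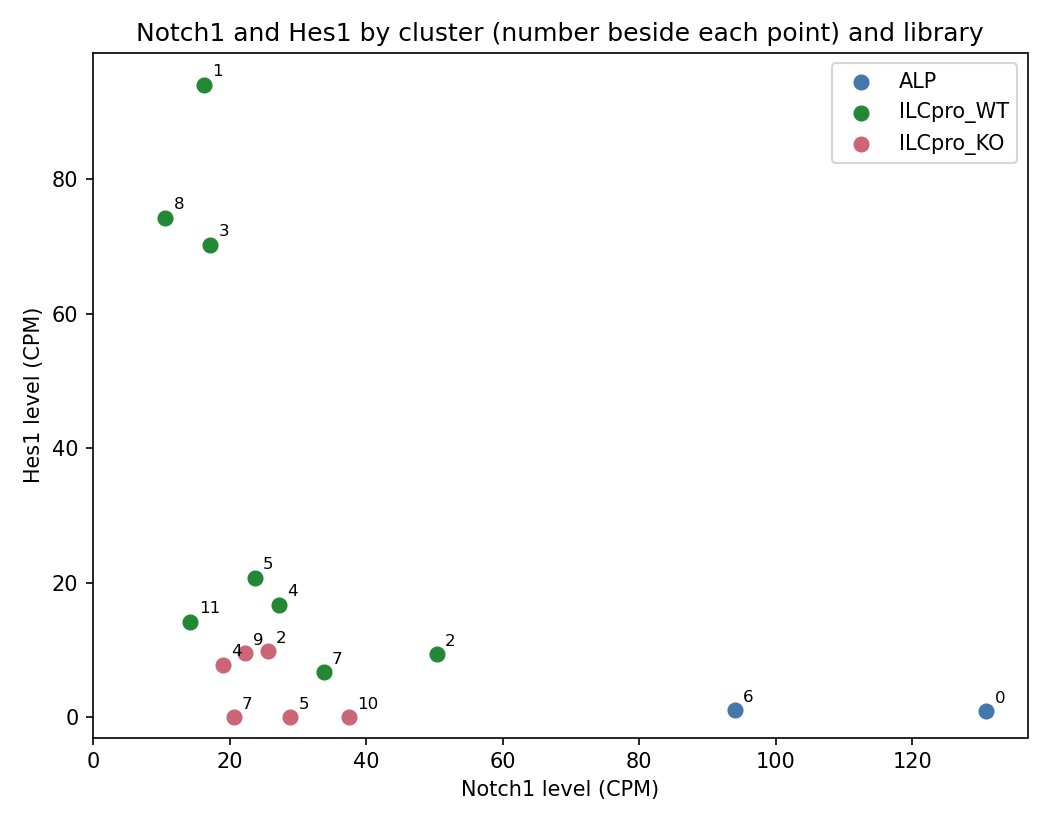
Hes1 level against Notch1 level, both in CPM, for each cluster with at least 50 cells of a library, with the cluster number beside the point and the colour giving the library. Clusters 1, 3 and 8 of ILCpro_WT lie high in Hes1 and low in Notch1, and clusters 0 and 6 of ALP lie high in Notch1 and near 0 in Hes1.

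Notch2 and Hes6 were high in other clusters. Notch2 peaked at 233 CPM in cluster 11 of ILCpro_WT and at 226 CPM in unnamed cluster 9 of ILCpro_KO, led by Asb2, where the other clusters of at least 50 cells ranged from 44.6 to 138 CPM. Hes6 stood at 297 CPM in the conventional DC-like cluster of ILCpro_WT and 298 CPM in that of ILCpro_KO, a ratio of 1.002 (0.779–1.30). It was lowest in cluster 11, at 57.0 CPM. In the 4 clusters with at least 50 cells of both libraries the Notch2 ratio of ILCpro_KO to ILCpro_WT ran from 0.972 to 1.46, and its interval excluded 1 in cluster 5 (1.04–2.05).

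A small group of cells carried most of the Dtx1 and much of the Notch1 of ILCpro_KO. Cluster 14, named T cell-like, counted 22 ILCpro_KO cells and 0 of the other libraries, and Cd3d, Cd3e and Cd3g were among its leading genes. These cells had 20 of the 22 Dtx1 UMIs of the library (201 CPM, 123–311) and 40 of its 148 Notch1 UMIs (403 CPM, 288–549). The other 2 Dtx1 UMIs lay in the 6 B cell-like cells. Notch2 had 1 UMI in cluster 14, or 10.1 CPM (0.255–56.1), and Hes1 had 3, or 30.2 CPM (6.23–88.3). Notch1 was therefore higher in these cells than in any ALP cluster by value, in a library whose whole level was below that of ALP. Without clusters of other lineages Dtx1 had 0 UMIs in ILCpro_KO. The labels give lineage-negative cells for both ILC progenitor gates, and how these cells came into the library was not tested.

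Cells were also split by the share of their UMIs from 34 cell cycle genes, at a limit of 0.5% chosen after the data were seen. It put 287 ALP, 244 ILCpro_WT and 179 ILCpro_KO cells in the cycling range. In ILCpro_WT Hes1 stood at 16.4 CPM (10.05–25.4) in cycling cells and 54.5 CPM (48.2–61.5) in the others, 3.32-fold lower (2.10–5.52), with medians of 4692.5 and 2684 UMIs a cell. In ILCpro_KO it stood at 1.31 and 11.2 CPM, 8.55-fold lower (2.18–73.6), from 2 UMIs in cycling cells. Stage, along which Hes1 differed, was not held equal between cycling and other cells. Notch1 in ALP was also lower in cycling cells, at 93.4 CPM (80.6–108) against 129 CPM (114–145), whereas Hes6 was higher, at 294 against 228 CPM. Of the 7 Nrarp UMIs of ALP, 6 lay in cycling cells, a ratio of 6.14 (0.745–282) that includes 1.

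The rest of the pathway was counted on the same scale with 10 CPM added, on which low genes need a larger ratio to pass 2-fold. Of the 6 ligands 0 reached 5 CPM in any library, and Dll1 was highest, at 3.45 CPM in ILCpro_WT and 3.19 CPM in ILCpro_KO. Of 16 measured genes that process ligands and receptors 0 passed 2-fold in each comparison, with median log2 ratios of -0.05 for ILCpro_WT against ALP, 0.12 for ILCpro_KO against ALP and 0.16 for ILCpro_KO against ILCpro_WT. Furin, the protease that cuts the receptor on its way to the surface, stood at 15.8 CPM in ALP, 41.2 CPM in ILCpro_WT and 23.5 CPM in ILCpro_KO. Lfng, a sugar transferase that modifies the receptor, ran opposite, at 23.3, 13.3 and 26.0 CPM. Of 7 measured genes of receptor turnover 0 passed 2-fold, with medians of -0.14, -0.06 and 0.07 in the same order. As a plain ratio Dtx4, a relative of Dtx1 in this list, was 3.59-fold lower (2.37–5.56) in ILCpro_WT and 3.16-fold lower (2.02–5.08) in ILCpro_KO than in ALP, where it stood at 19.4 CPM.

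Of 20 to 21 measured nuclear effectors and corepressors, Rbpj among them, 0 passed 2-fold either, with medians of 0.06, -0.01 and -0.12. Tle3, a Groucho family corepressor, was 2.09-fold higher (1.70–2.59) in ILCpro_WT than in ALP and 1.69-fold lower (1.40–2.05) in ILCpro_KO than in ILCpro_WT as a plain ratio. Ncor1, a corepressor that RBPJ recruits, stood at 129, 192 and 129 CPM in ALP, ILCpro_WT and ILCpro_KO. Maml3, a coactivator of the Mastermind family, was highest in ALP, at 86.3 CPM against 45.3 and 46.3 CPM. Their classes did not share a direction, since the corepressor Tle1 was 3.85-fold lower (2.08–7.52) in ILCpro_WT than in ALP and the coactivator Maml1 1.80-fold higher by value. Maml2, another coactivator, was 2.96-fold lower (1.40–6.97) in ILCpro_KO than in ILCpro_WT.

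Among 18 genes listed as Notch targets, many from T cell progenitors, 12 were measured for ILCpro_KO against ILCpro_WT. Hes1, Bcl11b, Gata3 and Tcf7 were at least 2-fold lower and Cd3e, a T cell receptor subunit, at least 2-fold higher. Of the 9551 genes with at least 5 CPM in either library, 0.869% were lower and 1.48% higher. For ILCpro_WT against ALP, of 9 measured, the same 4 genes by name were at least 2-fold higher and Myc was lower, at 29.7 against 82.9 CPM. The shares over genes that met that minimum were 2.11% and 3.06%. For ILCpro_KO against ALP, of 11 measured, Cd3e, Bcl11b, Gata3 and Tcf7 were higher and 0 lower, beside 2.01% and 1.43%. The list was chosen with these data known, so its counts are no independent evidence. List medians were 0.52, 0.61 and -0.21 for ILCpro_WT against ALP, ILCpro_KO against ALP and ILCpro_KO against ILCpro_WT. All genes that met the minimum had medians of -0.07, 0.01 and 0.09. Bcl11b, a T cell and ILC regulator, had 0 UMIs in ALP and stood at 89.3 CPM (81.9–97.1) in ILCpro_WT and 16.7 CPM (13.1–20.9) in ILCpro_KO. Gata3, which ILCs and T cells need, stood at 29.6, 339 and 75.3 CPM. The T cell-like cells held 93 of the 101 Cd3e UMIs and 60 of the 73 Bcl11b UMIs of ILCpro_KO, but 27 of 330 for Gata3 and 4 of 251 for Tcf7. The Cd3e calls, and the Bcl11b call for ILCpro_KO against ALP, thus rest mostly on the T cell-like cells. List counts and medians are not given without other lineages. The 8 T cell markers summed to 76.3 CPM in ALP with 5 of them at 0, 154 CPM in ILCpro_WT with 1 at 0 and 183 CPM in ILCpro_KO with 1 at 0. Tcf7 is the gene altered in ILCpro_KO, and these comparisons share libraries. Its reporter was also part of the gate of both ILC progenitor libraries. Its higher level there than in ALP therefore cannot be told apart from the sort and is not read as a finding about Notch targets. Of the 10 Hes and Hey family genes, Hes1 and Hes6 were the 2 that reached 5 CPM.

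The genes most like Hes1 over the 16 combinations of cluster and library were Ugcg, Tox2, Zbtb16, Pdcd1 and Ikzf2, with Pearson r of the log2 level from 0.90 to 0.94 among 3019 genes. Tox2, Zbtb16 and Pdcd1 belong to the late list of the stage ranges, so their place here is not independent of the Hes1 result by stage. Those most like Notch1 were Il17ra, Adgrl4, Lmo2, Xrcc6 and Cnn3, with r from 0.83 to 0.89. Both rankings left out genes that share a pathway list with the gene in question. Bcl11b, Gata3, Tcf7 and Myc, listed as targets with Hes1, could therefore not appear for Hes1. By Spearman rho, 0 of the 5 named for Hes1 and 1 of the 5 for Notch1 (Lmo2) stayed among the first 5, so the names depend on the measure.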

How the data were processed

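Single cells of 3 sorted populations were grouped by the labels' titles, 1 library per group. The authors deposited UMI counts per gene and barcode, whole numbers that were used unchanged. Per the submitters' processing notes the tools were bcl2fastq 2.17, STAR 2.5.1b and Cell Ranger 2.0.1 with mm10; their roles and settings are not given in the sources used here. Tags come from the 3' end, so levels were not set per length, and genes are compared between libraries and not with each other.

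Cells with at least 500 genes and at most 10% mitochondrial UMIs were kept (810, 1829 and 716 of 812, 1834 and 716 barcodes). UMIs were summed over cells and scaled to 1000000 (CPM). Intervals at 95% are Poisson for levels, Clopper-Pearson for shares and conditional binomial for ratios. A floor of 3 UMIs (0.729, 0.492 and 0.684 CPM) bounds ratios against 0, and 3 cells bound a share of 0. Alternatives were median-of-ratios factors and other cell filters, pseudocounts, cell sets and limits; stage ranges, class sums and receptor-positive cells without other lineages were added after seeing the data. Doublets were kept, and an alternative left out the highest Scrublet scores. Clusters came from scanpy 1.11.5 and leidenalg 0.10.2 at resolution 1.0 in Python 3.11.15, with no integration; a name needed at least 3 markers 2-fold higher and 1 among the leading 10 genes, and the details of that rule were set after the data were seen. No cell annotation by the authors was used. Gene locations are from GENCODE vM21 (GRCm38), and promoter windows from RefSeq (GRCm38.p6). The scripts were tested on simulated data.

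The 7 genes, the lists and the rules were chosen with earlier results of these data known. Genes named are the 7 genes, up to 4 of each pathway list with the largest log2 ratio in a comparison among those with at least 20 CPM in any library, the 5 most like Hes1 and Notch1 among genes with at least 50 CPM, and markers or leading genes of clusters. The ranking by likeness left out ribosomal, mitochondrial and sex-linked genes, gene models and genes that share a list with Hes1 or Notch1, respectively. Myc, Dll1, Notch3, Notch4, Dtx4, Tle1, Maml1 and Maml2 were named after their values were seen.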

Additional observations from a re-analysis of the deposited data

How the results depend on the processing

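No log2 ratio past 1 on the scale with 10 CPM added changed sign under the settings run. Dtx1, under that limit, did without other lineages, where it had 0 UMIs in ILCpro_KO against 0.486 CPM in ALP. With a pseudocount of 1 CPM in place of 10, 1 gene (Dtx1) was at least 2-fold higher for ILCpro_KO against ILCpro_WT in place of 0, 2 (Notch1 and Nrarp) were lower for ILCpro_WT against ALP in place of 1, and 2 (Hes1 and Dtx1) were higher for ILCpro_KO against ALP in place of 0. Among cells with under 0.5% cell cycle UMIs, a limit added after seeing the data, Hes1 made that last count 1. With the stage ranges of ILCpro_KO weighted as in ILCpro_WT, also added later, 0 genes were at least 2-fold lower for ILCpro_KO against ILCpro_WT in place of 1. Under the other settings run, the 6 counts of genes past 2-fold were as reported. All 21 log2 ratios kept their sign under the stricter cell filter, all barcodes, both other scalings, the mean of per-cell CPM and the doublet alternative; 19 did without other lineages, 18 with the basophil-erythroid cluster also out, 19 without the 3 cells richest in each gene, 19 under 0.5% cell cycle UMIs and, under stage weighting, 6 of 7, all but Hes6. At resolution 1.5 the highest Notch1 level among ILCpro_WT clusters was 80.3 CPM in place of 50.4. The planned cell cycle limit of 1% left 33, 24 and 17 cells and a limit of 2% left 0, so neither gave a comparison. No paired analysis was possible because each group is 1 library and the labels give no replicate numbers. Dtx1 and Nrarp in each library, and Hes1 in ALP, rest on 22 UMIs or fewer.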
